A study of Mus musculus with 6 samples.

Results

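The genes described here are 8 marker and effector genes of osteoclasts, the bone-resorbing cells of the macrophage lineage: Nfatc1, Dcstamp, Ocstamp, Atp6v0d2, Itgb3, Acp5, Ctsk and Mmp9. They were chosen by symbol from 14005 genes in the deposited table, with earlier results of these data known. All 8 also passed the filter of a mean of at least 10 normalized counts, as did 13977 genes in all. PolyA-selected RNA of primary mouse macrophages derived from bone marrow was sequenced in 3 libraries labelled Txn1 KO and 3 wild-type libraries. The Txn1 KO genotype combines the allele Txn1tm1.1Ees/J of Txn1, the gene of thioredoxin-1, with the strain B6.129P2-Lyz2tm1(cre)lfo/J, in which a Cre recombinase sits in the Lyz2 gene. The genotype of the other group is given as wild type. In both groups the background is C57BL/6J and the sex is given as pooled male and female, and the labels name no age and no treatment of the cells. The stated question of the study concerned genes of the NLRP1 inflammasome, so the osteoclast genes lie outside it. Cre driven from Lyz2 acts in myeloid cells and interrupts Lyz2 itself, and a Cre-only group was not analysed here. Effects of the Txn1 allele, of the interrupted Lyz2 and of Cre itself therefore cannot be told apart in these groups.

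Osteoclasts form when macrophage precursors that carry the receptor for M-CSF meet RANKL, a ligand made by bone and stromal cells. RANKL binds RANK, and the signal runs through NF-kB and AP-1 to NFATc1, the master transcription factor of the lineage, which switches on genes of cell fusion, attachment, acid secretion and bone matrix digestion. Macrophages share this lineage and can express several of these genes without being osteoclasts.

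The libraries held 22508616 to 31127228 reads in listed genes in Txn1 KO and 29716640 to 38726953 in wild type. Values are normalized counts, the authors' read counts divided by 1 size factor per library, and 1 read was worth 0.777 to 1.35 of them. Lyz2 averaged 3118 ± 1281 normalized counts in Txn1 KO and 364408 ± 3550 in wild type (SD, n = 3 each), so it followed the labels. Txn1 averaged 12349 ± 367 in Txn1 KO and 12580 ± 532 in wild type (limma adjusted p = 0.686). The Txn1 mean was 98.2% of that in wild type, and limma's confidence interval ran from 93.0% to 104%. No large loss of Txn1 reads was therefore seen, and Txn1, unlike Lyz2, did not follow the labels. The counts sum the whole gene, and whether part of it was deleted was not tested. The library labelled Txn1 KO replicate 3 and wild-type replicate 1 stood apart through transcripts of liver genes: 5 tested hepatocyte markers summed to 1065 normalized counts in the first and 1139 in the second, against 21.8 to 35.4 in the other 4. Of 11 tested entries for 10 macrophage markers 3 rose and 5 fell, Lyz2 among them (72.7% called, against 21.5% of all genes tested). Csf1r, the M-CSF receptor, had 52094 ± 495 normalized counts in Txn1 KO and 50502 ± 1285 in wild type and did not pass (log2 change 0.05). The summed level of these markers was 136767 to 138759 in Txn1 KO and 501269 to 509367 in wild type, and without Lyz2, which the Cre interrupts, it was 134195 to 134992 in Txn1 KO and 137644 to 141083 in wild type.

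Of the 8 osteoclast genes, 6 rose in Txn1 KO, 1 fell and 1 did not pass the test. The genes that rose were Ocstamp, Acp5, Dcstamp, Ctsk, Itgb3 and Atp6v0d2, Mmp9 was the gene that fell, and Nfatc1 was the gene that did not pass. The test was limma, two-sided, on log2(normalized count + 1) over all 13977 genes, and a gene was called where its p, adjusted by Benjamini-Hochberg, was under 0.05. Below, log2 changes are given ± SE and levels ± SD (n = 3 each). Of all genes tested 21.5% were called, 11.5% as higher and 9.97% as lower. For 7 of the 8 genes every library of 1 group was above every library of the other, as for 36.2% of all genes tested. The median log2 change of the 8 was 0.46, and that of all genes tested was -0.0049. The 8 genes and the gene lists were chosen with earlier results known, so their shares against all genes are a description. Nothing in the labels states that replicates are separate animals or cultures, so p-values reflect only how these libraries vary, which may be technical. In bulk RNA a change in the number of cells of a type and a change in RNA per cell cannot be told apart.

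**Figure D1:**
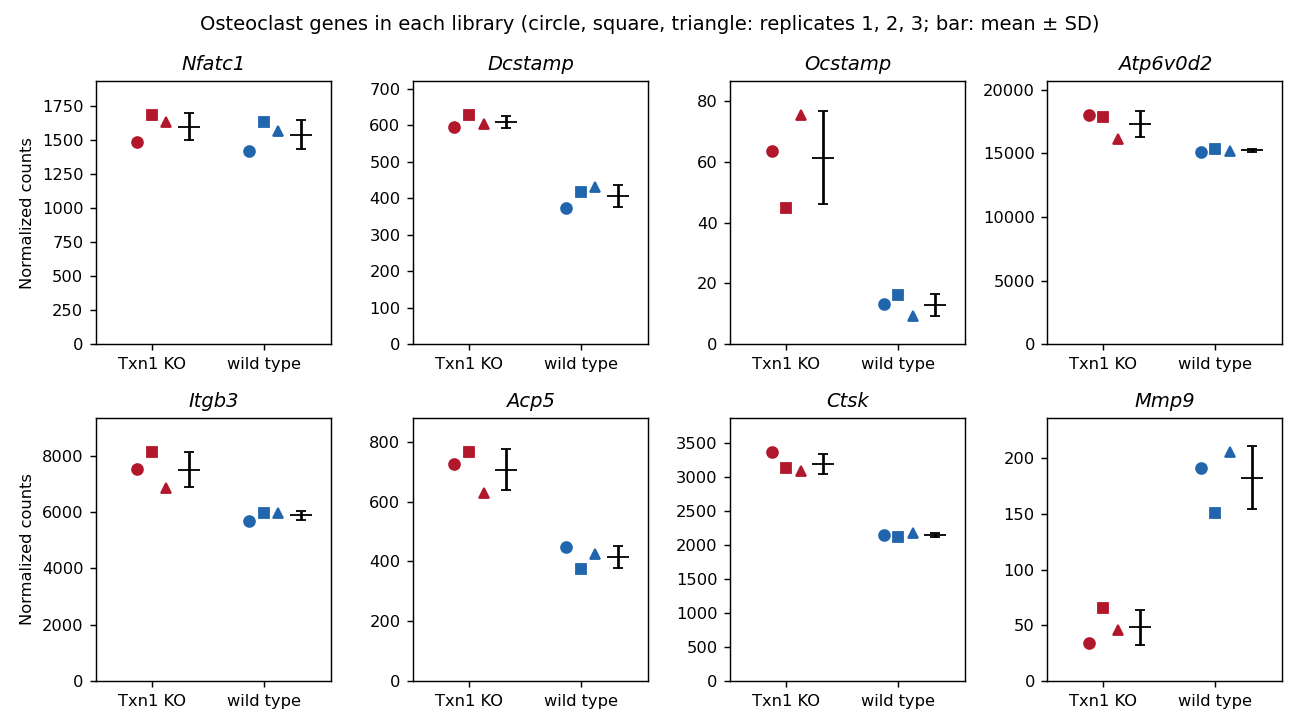
Normalized counts (y axes, each from 0) of the 8 osteoclast genes in the 3 Txn1 KO (red) and 3 wild-type (blue) libraries. Circles, squares and triangles are replicates 1, 2 and 3, and the black bar is the mean ± SD of the 3. The groups are apart in every panel other than Nfatc1, and Mmp9 is the gene whose Txn1 KO libraries lie below wild type.

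Nfatc1 (ENSMUSG00000033016, chromosome 18, 80606205 to 80713071, GRCm38), the transcription factor at the head of the program, had 1485, 1680 and 1630 normalized counts in Txn1 KO, against 1421, 1631 and 1563 in wild type. The values of both groups are interleaved. The log2 change was 0.06 (95% interval -0.07 to 0.18, limma adjusted p = 0.569), so the interval covers 95.4% to 113% of the wild-type level. The sign turned without wild-type replicate 1 (-0.0005) and without both libraries with liver transcripts (-0.0155). The relatives Nfatc2, Nfatc3, Nfatc4 and Nfat5 did not pass either, though Nfat5 passed as higher without Txn1 KO replicate 1 (0.22, limma adjusted p = 0.0203). Nfatc2 had 568.9 ± 33.1 normalized counts in Txn1 KO and 601.8 ± 49.8 in wild type.

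Dcstamp (ENSMUSG00000022303, chromosome 15, 39745930 to 39760938) and Ocstamp (ENSMUSG00000027670, chromosome 2, 165393760 to 165400405) encode the membrane proteins that macrophages need to fuse into multinucleated osteoclasts. Dcstamp had 595.8, 626.7 and 602.9 normalized counts in Txn1 KO, against 371.9, 416.5 and 430.1 in wild type. Every Txn1 KO library was above every wild-type library, and the log2 change was 0.58 ± 0.074 (SE, limma adjusted p = 1.73e-05). Ocstamp had 63.8, 45.0 and 75.4 normalized counts in Txn1 KO, against 13.2, 16.3 and 9.22 in wild type. It is a low gene, with 47 to 56 reads per library in Txn1 KO and 11 to 21 in wild type, and the groups did not overlap. Its log2 change of 2.16 ± 0.31 (limma adjusted p = 6.08e-05, ratio of means 4.75) was the largest rise of the 8. The authors' deposited table gives 2.23 for it, and in the limma fit 0.372% of all genes tested had a larger change in either direction. The ratio of Ocstamp to Dcstamp within a library was 0.101 ± 0.027 in Txn1 KO and 0.0321 ± 0.0094 in wild type (exact two-sided permutation p = 0.1, the smallest that 3 against 3 allows, and 0.1 adjusted over the 4 ratios computed). All Txn1 KO libraries were above all wild-type libraries in that ratio. Ocstamp alone already separated the groups, so that ratio is no further test.

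Atp6v0d2 (ENSMUSG00000028238, chromosome 4, 19876841 to 19922605) encodes the d2 subunit of the membrane part of the V-ATPase, the proton pump, and is also needed for efficient fusion of precursors. It had 17996, 17846 and 16133 normalized counts in Txn1 KO, against 15151, 15368 and 15199 in wild type. The Txn1 KO libraries were above all wild-type libraries, and replicate 3 was the closest to them. The log2 change was 0.18 ± 0.039 (limma adjusted p = 0.00234), the smallest of the 7 that passed, and 36.1% of all genes tested had a larger change. Atp6v0d1, the paralog found in most tissues, averaged 7459 ± 357 normalized counts in Txn1 KO and 7860 ± 68.7 in wild type (log2 change -0.08, limma adjusted p = 0.169). Within a library the ratio of Atp6v0d2 to Atp6v0d1 was 2.33, 2.35 and 2.29 in Txn1 KO, against 1.91, 1.96 and 1.95 in wild type (exact two-sided permutation p = 0.1, the smallest possible, and 0.1 adjusted over 4 ratios). Atp6v0d1 was below all wild-type libraries in every Txn1 KO library, so that separation follows from both levels and is no further test.

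Itgb3 (ENSMUSG00000020689, chromosome 11, 104608000 to 104670476) encodes integrin β3, which pairs with integrin αv as the receptor that seals osteoclasts to bone, and with integrin αIIb on platelets. It had 7529, 8142 and 6880 normalized counts in Txn1 KO, against 5686, 5988 and 5988 in wild type. The groups did not overlap, and the Txn1 KO libraries were spread more widely (SD 631) than wild type (SD 175). The log2 change was 0.35 ± 0.049 (limma adjusted p = 4.63e-05). Its partner Itgav had 2406 ± 96.5 normalized counts in Txn1 KO and 2459 ± 140 in wild type (limma adjusted p = 0.724). The ratio of Itgb3 to Itgav within a library was 3.13 ± 0.34 in Txn1 KO and 2.40 ± 0.089 in wild type. Its exact two-sided permutation p was 0.1 (0.1 adjusted over 4 ratios). Itgb3 alone already separated the groups, so that ratio is no further test. Among markers of megakaryocytes, 4 of 9 were tested, and their summed level was 3991 to 4122 normalized counts in Txn1 KO and 4134 to 4315 in wild type. Vwf made up most of that sum, and the other 3 summed the other way, to 635.3 to 745.6 in Txn1 KO and 333.7 to 377.0 in wild type. Itga2b, which encodes integrin αIIb, rose at a low level, with 57.3 ± 17.0 normalized counts in Txn1 KO and 26.4 ± 8.12 in wild type (limma adjusted p = 0.0111). That call was lost without Txn1 KO replicate 2 (adjusted p = 0.0792) and without wild-type replicate 3 (adjusted p = 0.0663). Pf4, a platelet chemokine that macrophages also express, rose (582.7 ± 72.0 in Txn1 KO and 296.8 ± 8.04 in wild type), and Vwf fell (3363 and 3865 normalized counts). Their part in the result for Itgb3 was not tested.

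Acp5 (ENSMUSG00000001348, chromosome 9, 22126727 to 22135711) encodes tartrate-resistant acid phosphatase, the classical enzyme stain of osteoclasts. It had 725.7, 765.5 and 629.8 normalized counts in Txn1 KO, against 447.3, 373.8 and 423.4 in wild type. The lowest Txn1 KO library was above the highest wild-type library, and the log2 change was 0.77 ± 0.085 (limma adjusted p = 3.78e-06, ratio of means 1.70). Its exons overlap in part the annotated antisense gene 6530413G14Rik, which has no row in the table. Whether the counting used strand is not stated, so reads of that gene could not be told apart. Ctsk (ENSMUSG00000028111, chromosome 3, 95499256 to 95509362) encodes cathepsin K, the protease that digests bone collagen in the acid resorption space. It had 3363, 3126 and 3091 normalized counts in Txn1 KO, against 2148, 2116 and 2170 in wild type. Ctsk had narrow spreads in both groups, with a coefficient of variation of 4.63% in Txn1 KO and 1.26% in wild type. Its log2 change of 0.57 ± 0.042 had the smallest p of the 8 (limma adjusted p = 2.62e-08).

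The promoters of Ctsk and Acp5 are shown because both genes rose and because factors of the osteoclast program are known to bind them. RefSeq's promoter table (GRCm38.p6) matched 2 of the 8 genes by symbol, with 1 start for Ctsk and 3 for Acp5. Windows run from 250 to 11 bases before the start, hold no annotated exon, and are printed 5′ to 3′ on the gene's strand. Capitals mark the MITF M-box TCATGTG, the AP-1 motif TGANTCA and the PU.1 core GAGGAA, on either strand.
Ctsk, chr3:95498960-95499199, plus strand: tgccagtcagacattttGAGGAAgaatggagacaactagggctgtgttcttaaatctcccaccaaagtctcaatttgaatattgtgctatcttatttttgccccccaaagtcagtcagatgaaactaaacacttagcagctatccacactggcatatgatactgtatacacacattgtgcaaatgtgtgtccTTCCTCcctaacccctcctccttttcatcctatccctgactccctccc
Acp5, chr9:22130609-22130848, minus strand: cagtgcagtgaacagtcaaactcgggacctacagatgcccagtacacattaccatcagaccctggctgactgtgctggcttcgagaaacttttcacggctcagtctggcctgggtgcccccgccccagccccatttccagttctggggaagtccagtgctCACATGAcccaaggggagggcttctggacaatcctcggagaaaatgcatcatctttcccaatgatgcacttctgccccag
The Ctsk window held the PU.1 core once on each strand, a motif found in 22.3% of the 32851 windows of the same length in that table. The Acp5 window, of the innermost of its 3 starts, held the M-box on the strand opposite to the gene, which 3.13% of windows hold. It also held the letters of the antioxidant response element core TGACNNNGC, bound by NRF2 in other genes and present in 9.67% of windows, and the NFAT core GGAAA, present in 54.1%. No match overlapped another. The windows of the other 2 Acp5 starts, not printed, held the NFAT core alone among these motifs. The Ctsk window held no M-box, no NFAT core and no antioxidant response element core. The letters of AP-1, in 6.58% of windows, were in none of these windows. A match of letters is no evidence of binding, and the counts do not tell which Acp5 start was used.

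Mmp9 (ENSMUSG00000017737, chromosome 2, 164940780 to 164955850) encodes gelatinase B, a secreted protease of osteoclasts, neutrophils and activated macrophages. It had 33.6, 65.1 and 45.8 normalized counts in Txn1 KO, against 191.6, 150.8 and 205.4 in wild type. All Txn1 KO libraries were below all wild-type libraries, with 29 to 68 reads per library in Txn1 KO and 188 to 245 in wild type. The level in Txn1 KO was 26.4% of that in wild type, a log2 change of -1.94 ± 0.21 (limma adjusted p = 2.88e-06). Mmp9 lies 437.9 kb from Ocstamp on chromosome 2, so the gene with the largest rise and the gene that fell are on the same chromosome. The relatives of Mmp9 on the lists mostly moved the other way. Mmp8, Mmp12, Mmp13 and Mmp19, secreted matrix proteases, rose by 1.06, 0.82, 0.83 and 0.57 (log2), and Mmp14, the membrane-bound one, by 0.57. Mmp12, the macrophage elastase, was the most abundant of them, at 76649 ± 1572 normalized counts in Txn1 KO and 43422 ± 763 in wild type. Mmp2, the other gelatinase, fell like Mmp9, with 105.0 ± 9.88 normalized counts in Txn1 KO and 172.0 ± 23.8 in wild type (limma adjusted p = 0.00156). That call was lost without both libraries with liver transcripts (adjusted p = 0.0527). Mmp3 did not pass (80.7 ± 61.6 normalized counts in Txn1 KO and 128.9 ± 36.9 in wild type, log2 change -0.89), but without Txn1 KO replicate 1 it was called as lower (-1.47, limma adjusted p = 0.000783). The ratio of Mmp9 to Mmp14 within a library was 0.0214 ± 0.0061 in Txn1 KO and 0.121 ± 0.020 in wild type (exact two-sided permutation p = 0.1, and 0.1 adjusted over 4 ratios). Mmp14 was above all wild-type libraries in every Txn1 KO library, so that separation follows from both levels and is no further test.

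**Figure D2:**
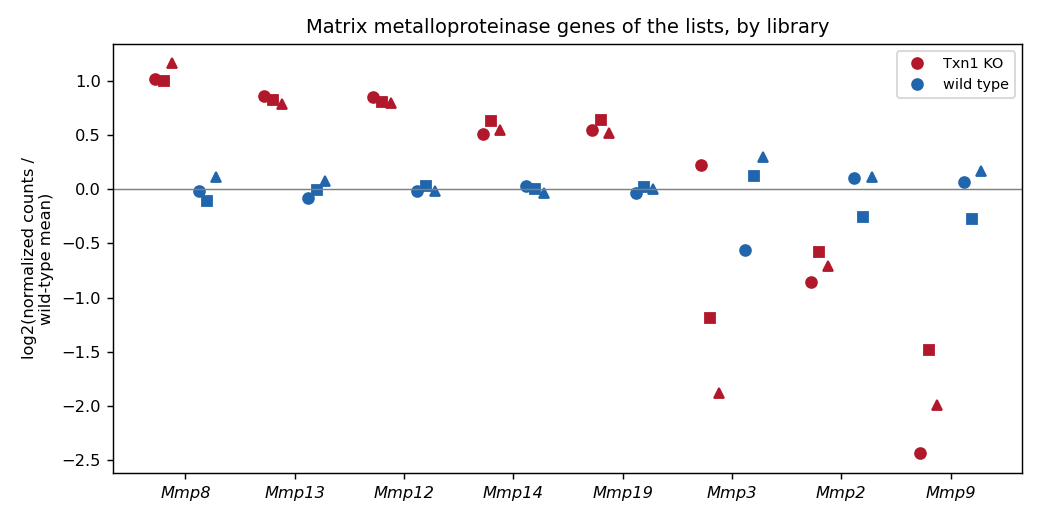
Log2 of normalized counts divided by the wild-type mean (y axis) for 8 matrix metalloproteinase genes (x axis), in each Txn1 KO (red) and wild-type (blue) library. Circles, squares and triangles are replicates 1, 2 and 3. The Txn1 KO libraries lie above wild type for Mmp8, Mmp13, Mmp12, Mmp14 and Mmp19 and below it for Mmp2 and Mmp9.

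Markers of other cells moved in the same libraries as Mmp9. Of 12 tested markers of bone and stromal cells 8 fell and 1 rose (75% called, against 21.5% of all genes tested). Their summed level was 1540 to 2585 normalized counts in Txn1 KO and 3150 to 3462 in wild type. Without wild-type replicate 3, 5 fell. The gene that rose, Runx2, a bone transcription factor, passed narrowly (limma adjusted p = 0.049) and lost its call in 8 alternatives, among them the fits without Txn1 KO replicate 2 and without any single wild-type library. Col1a2, a chain of type I collagen, had 290.4 ± 76.1 normalized counts in Txn1 KO and 730.6 ± 46.3 in wild type, and the secreted proteins Bgn, Grem1 and Dcn fell by 1.39, 1.99 and 1.14 (log2). Sp7, the osteoblast transcription factor, was at 0 in Txn1 KO replicate 3. Of 8 tested neutrophil markers 2 rose and 2 fell (50% called, against 21.5% of all genes tested). The summed level was 3169 to 3273 in Txn1 KO and 2897 to 3024 in wild type. Csf3r made up most of that sum, and the other 7 markers summed to 302.8 to 368.6 in Txn1 KO and 323.0 to 354.4 in wild type. The member with the smallest p, Cxcr2, a chemokine receptor, rose (49.4 ± 10.5 in Txn1 KO and 13.3 ± 0.11 in wild type), and S100a9, a granulocyte calcium-binding protein, fell (45.3 ± 8.33 and 81.1 ± 13.3). The call of S100a9 ended without wild-type replicate 2 (limma adjusted p = 0.0583). The calls of the other two, Csf3r and Ngp, were lost without any of several single libraries. Whether these cells had a part in the fall of Mmp9 was not tested. Dendritic cell markers, given because Dcstamp was first found in dendritic cells, summed to 5712 to 6383 normalized counts in Txn1 KO and 3725 to 4036 in wild type. Of 7 tested, 3 rose (Itgax, Ccr7 and Batf3), or 42.9% against 21.5% of all genes tested. Flt3, Zbtb46, Xcr1 and Siglech, all at low levels, did not pass (log2 changes 0.88, -0.29, -0.39 and -0.67). Itgax alone had 5568 ± 372 and 3524 ± 139. The other 6 markers summed to 465.0 to 536.7 in Txn1 KO and 334.9 to 392.4 in wild type. The part of these markers in the rise of Dcstamp was not tested. The call of Batf3 was lost without both libraries with liver transcripts (limma adjusted p = 0.0939).

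**Figure D3:**
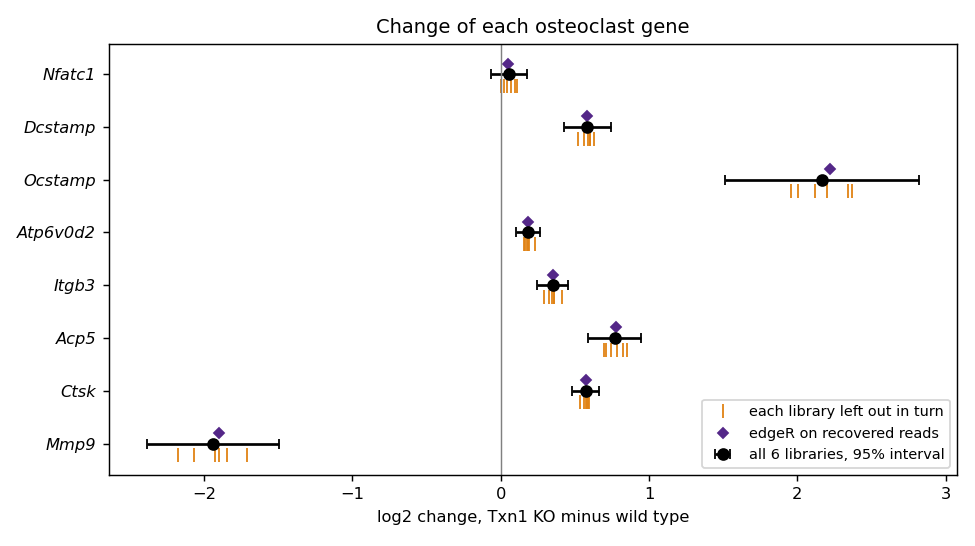
Log2 change, Txn1 KO minus wild type (x axis), of each of the 8 osteoclast genes. Black points and bars are the estimate and 95% interval from all 6 libraries, orange ticks are the estimates with each library left out in turn, and purple diamonds are edgeR's estimates on recovered reads. The intervals of 7 genes do not include 0, and the ticks of each of those genes stay on 1 side of it.

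The 8 genes covered a wide range of levels when divided by exon length. Per kb of exon, Atp6v0d2 was the highest in both groups (6379 ± 381 normalized counts per kb in Txn1 KO and 5611 ± 41.9 in wild type, SD, n = 3 each). Next came Ctsk with 2112 ± 97.8 and 1418 ± 17.9, and Itgb3 with 1274 ± 107 and 997.7 ± 29.6. In Txn1 KO the order went on with Acp5 at 348.3 ± 34.3 normalized counts per kb, then Dcstamp at 228.4 ± 6.07 and Nfatc1 at 214.0 ± 13.6, whose libraries overlapped. Last were Ocstamp at 16.8 ± 4.19 and Mmp9 at 13.6 ± 4.48, which overlapped too. In wild type Nfatc1 at 206.0 ± 14.3 and Acp5 at 204.4 ± 18.5 were level within their spread, and Dcstamp at 152.5 ± 11.4, Mmp9 at 51.6 ± 8.03 and Ocstamp at 3.54 ± 0.97 normalized counts per kb followed. Thus Mmp9 and Ocstamp, apart in wild type, were at similar levels in Txn1 KO. Atp6v0d2 stood at percentile 98.4 of all tested genes by mean level per kb, Ctsk at 94.1 and Ocstamp at 12.5.

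The libraries of a group did not keep 1 order over the genes. Txn1 KO replicate 3, the one with liver transcripts, was the lowest Txn1 KO library for 4 of the 8 genes (Atp6v0d2, Itgb3, Acp5 and Ctsk) and the highest for Ocstamp. Across all 6 libraries, the genes most like each member in log2 level, among 11131 to 11132 genes with a mean of at least 50, were listed by Pearson's r as a description. The points are 6 libraries in 2 groups, so genes that differ between the groups share that difference. For Acp5 they were Tubb6, a tubulin (r = 0.999), and Src, the kinase that builds the osteoclast's ruffled border (r = 0.997). For Ctsk they were Slc6a9 and Tnfsf13 (r = 0.999 and 0.997), and for Dcstamp Plbd1 and Tnfrsf1b (r = 0.998 for both). For Ocstamp they were Mettl7a1 and Akr1c12 (r = 0.996 for both). For Itgb3 they were Zcchc24 and Ptprs (r = 0.997 and 0.995), and for Atp6v0d2 Maff and Cd276 (r = 0.996 and 0.995). For Mmp9 they were Tram2 and Rsph3b (r = 0.996 and 0.990), and for Nfatc1 Usp14 and Scyl2 (r = 0.972 and 0.966).

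Genes of the signal upstream of the 8 moved in both directions. Of 12 tested ligands, receptors and adaptors, 2 rose and 2 fell, or 33.3% against 21.5% of all genes tested, with a median log2 change of -0.04. Tnfrsf11a, which encodes the receptor RANK, had 1951 ± 82.0 normalized counts in Txn1 KO and 1663 ± 48.2 in wild type (log2 change 0.23 ± 0.047, limma adjusted p = 0.00161). Tec, a kinase that couples RANK to calcium signals, rose by 0.22. Blnk, the adaptor that works with it, fell by 0.17 and Fcer1g, an adaptor of the costimulatory receptors, fell by 0.15 (log2). The call of Fcer1g was lost without Txn1 KO replicate 2 (limma adjusted p = 0.0801) and without wild-type replicate 1 (adjusted p = 0.0521). Csf1, Csf1r, Trem2, Tyrobp, Traf6, Syk, Btk and Plcg2 did not pass, though Syk passed as higher without Txn1 KO replicate 3 (limma adjusted p = 0.0468). Il34, Tnfsf11, Tnfrsf11b, Oscar, Siglec15 and Calcr had no row under these symbols in the deposited table. The lowest mean of a gene listed there was 9.28 normalized counts. The level of RANKL, the product of Tnfsf11, is therefore not known from these data.

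Among 15 tested activating transcription factors 3 rose and 12 did not pass (median log2 change 0.06). The share called was 20%, close to the 21.5% of all genes tested. Mitf, a partner of PU.1 at osteoclast promoters, had 2447, 2543 and 2511 normalized counts in Txn1 KO, against 2170, 2167 and 2112 in wild type (log2 change 0.22 ± 0.040, limma adjusted p = 0.000705). Fosl1, which encodes the AP-1 subunit Fra-1, rose to 68.5 ± 7.41 normalized counts in Txn1 KO, against 28.9 ± 5.11 in wild type (log2 change 1.23 ± 0.23, limma adjusted p = 0.000800). Fosl2, which encodes Fra-2, passed narrowly at 0.21 (limma adjusted p = 0.0477) and in 5 of 15 alternatives, and each single library other than wild-type replicate 3 ended its call when left out. Spi1, which encodes PU.1, had 12714 ± 223 normalized counts in Txn1 KO and 12846 ± 685 in wild type. Nfkb2, an NF-kB subunit gene, did not pass (-0.11, limma adjusted p = 0.0581) but passed as lower in 4 of the alternatives, among them the fits without wild-type replicate 1 and without both libraries with liver transcripts.

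Of 7 repressors of osteoclast formation 3 rose and 1 fell, or 57.1% against 21.5% of all genes tested, with a median log2 change of 0.24. Id2, an inhibitor of helix-loop-helix factors, had 5014, 4645 and 4966 normalized counts in Txn1 KO, against 2894, 2892 and 2846 in wild type (log2 change 0.76 ± 0.039, limma adjusted p = 2.37e-10). Rcan1, an inhibitor of calcineurin, the phosphatase that activates NFAT proteins, rose by 0.24, and Tnfaip3, a feedback inhibitor of NF-kB, rose by 0.25. Bcl6, a repressor that acts on NFATc1 target genes including Dcstamp and Ctsk in mice, fell to 1371 ± 49.3 normalized counts in Txn1 KO, against 1675 ± 12.1 in wild type (log2 change -0.29, limma adjusted p = 0.000183). Irf8 (0.05), Rbpj (-0.12) and Id1 (0.57) did not pass. Some genes that promote and some that hold back osteoclast formation thus rose in the same libraries. Others of both kinds fell or did not pass.

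Most genes of cell fusion rose. Of 12 tested 9 rose, against 11.5% of all genes, and 3 did not pass, with a median log2 change of 0.23, and without Dcstamp, Ocstamp and Atp6v0d2, 6 of 9 rose, with a median of 0.22. In the fits without Txn1 KO replicate 3 and without both libraries with liver transcripts, Cd47 fell (limma adjusted p = 0.0363 and 0.0381). Cd9, a tetraspanin, had 34758 ± 627 normalized counts in Txn1 KO and 29480 ± 688 in wild type (log2 change 0.24, limma adjusted p = 3.07e-05). Cd200r1, the receptor of Cd200, had 3661 ± 130 in Txn1 KO and 2769 ± 172 in wild type (log2 change 0.40 ± 0.046, limma adjusted p = 5.85e-06). The other members that rose were Cd81, Adam8, Cd44 and Cd200. Sirpa and its ligand Cd47 did not pass (-0.07 and -0.09).

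Genes of acid secretion and resorption did not move as a group. Of 14 tested 3 rose (Acp5, Ctsk and Mmp14) and 3 fell (Mmp9, Lamp2 and Slc4a2), with a median of 0.03. Calls made up 42.9% of that list, against 21.5% of all genes tested. Slc4a2, the anion exchanger that balances acid secretion, had 2036 ± 31.2 normalized counts in Txn1 KO and 2281 ± 35.1 in wild type. Tcirg1, the a3 subunit of the pump, had 44180 ± 269 in Txn1 KO and 41658 ± 1313 in wild type (limma adjusted p = 0.0738). Tcirg1 was called as higher by DESeq2 (adjusted p = 0.0387) and in the authors' deposited table (adjusted p = 0.0386). These calls are not independent, as the submitters' notes also name DESeq2. Clcn7, the chloride-proton exchanger that works with the pump, did not pass (0.04). Car2, the carbonic anhydrase that supplies protons, was near the filter, with 19.5 ± 1.37 normalized counts in Txn1 KO and 12.9 ± 4.10 in wild type (limma adjusted p = 0.303). Among 18 subunits of the V-ATPase, with a median of -0.04, 33.3% were called, against 21.5% of all genes tested. Of these subunits 2 rose (Atp6v0d2 and Atp6v1h) and 4 fell (Atp6v1f, Atp6v0c, Atp6v0a1 and Atp6ap1). The count of those that fell was 2 without Txn1 KO replicate 1, Txn1 KO replicate 2 or wild-type replicate 3.

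In the list of attachment and the actin ring 4 of 16 rose and 4 fell, with a median log2 change of -0.05. The share called was 50%, against 21.5% of all genes tested. Src had 1235, 1340 and 1132 normalized counts in Txn1 KO, against 888.5, 759.2 and 825.0 in wild type (log2 change 0.58 ± 0.069, limma adjusted p = 7.86e-06). Ptk2b, the kinase Pyk2 downstream of the αvβ3 integrin, rose by 0.14, and Cttn, which encodes cortactin, a Src substrate, by 0.60. Spp1, which encodes osteopontin, a ligand of that integrin, fell to 155020 ± 7702 normalized counts in Txn1 KO, against 201173 ± 1987 in wild type (log2 change -0.38, limma adjusted p = 1.56e-06). Tln1, Cblb and Vav1 fell by 0.20, 0.23 and 0.10 (log2). The call of Vav1 was lost in each fit without 1 library, and Cttn missed the threshold when wild-type replicate 3 was left out (limma adjusted p = 0.0518).

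**Figure D4:**
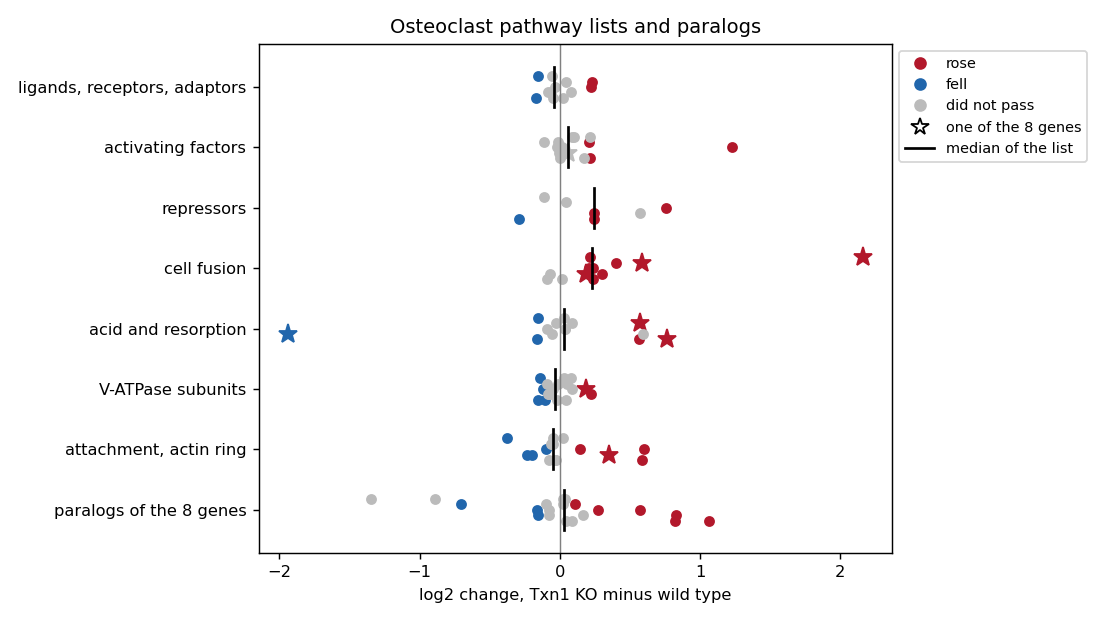
Log2 change, Txn1 KO minus wild type (x axis), of every tested gene of 7 osteoclast pathway lists and of the paralogs of the 8 genes. Red genes rose, blue genes fell, grey genes did not pass, stars are the 8 osteoclast genes and black lines are list medians. The medians of cell fusion (0.23) and of the repressors (0.24) lie above 0, and the other lists lie within 0.06 of it.

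Paralogs of the 8 genes were mixed in direction. Of 20 tested 6 rose and 3 fell, or 45% against 21.5% of all genes tested, with a median log2 change of 0.03. Without both libraries with liver transcripts, 1 fell. Apart from the metalloproteinases, Itgb2, the leukocyte integrin subunit, rose (50900 ± 1565 normalized counts in Txn1 KO and 42060 ± 1533 in wild type) and Itgb1 fell by 0.16. Among lysosomal cathepsins Ctsh rose by 0.11 and Ctsb fell by 0.16, and Ctss and Ctsl did not pass (0.04 for both). With wild-type replicate 3 left out Ctsb no longer passed (limma adjusted p = 0.0635), and Ctsh lost its call in 5 alternatives, without Txn1 KO replicate 1 or 2 and without wild-type replicate 2 or 3 among them. Acp2, the lysosomal acid phosphatase, did not pass (0.09, limma adjusted p = 0.0879).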

How the data were processed

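PolyA-selected RNA was sequenced with added ERCC spike-ins, per the labels' protocols. The submitters' processing notes name bcl2fastq 2.20, Trimmomatic 0.36, STAR 2.5.2b, DESeq2 and the build GRCm38 (mm10). No source used here names the read counter, its annotation or whether it used strand. The deposited signal of a gene is a read count that the authors divided by a size factor: 100% of values are whole multiples of their library's step (tolerance 0.01 reads). The table's log2 fold changes and p-values are the authors' own. A floor of 3 reads equals 2.33 to 4.04 normalized counts, for counting error only. Libraries of a group were not duplicates (chi-square over degrees of freedom 6.14 to 29.6).

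Columns named BMDM and a number were taken as wild type, the control group. limma 3.58.1 (R 4.3.3, trended prior) was run on log2(normalized count + 1), a scale that makes changes of low genes look smaller. Its 13977 genes had a mean of at least 10, and 28 were not tested. On the recovered reads, edgeR 4.0.16 (quasi-likelihood, TMM) called 2976 genes, and DESeq2 1.42.0 was a further alternative. Positions, exon lengths and overlaps came from GENCODE M21. The fits were tested on simulated data. The 8 genes, the 14 gene lists and the rule for named genes were chosen with earlier results of these data known. The rule takes the 8 genes, Txn1, Lyz2, up to 4 called genes with the smallest p per list or the 2 highest where none passed, and the 2 genes most like each member. Other genes were named after their values were seen, and the ratios of 2 genes and the marker sums without 1 gene were added then too. An item of the list of repressors is not reported here, and that list was counted without it.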

Additional observations from a re-analysis of the deposited data

How the results depend on the processing

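Nfatc1 was the osteoclast gene whose sign depended on the libraries: its log2 change was -0.0155 without both libraries with liver transcripts and ran from -0.0005 to 0.1074 over the fits that left out 1 library each. That of Txn1 was 0.005 without both libraries with liver transcripts and ran from -0.0507 to 0.0075. The other 7 osteoclast genes kept their direction and their call under every alternative that could be fitted (other pseudocounts, filters, edgeR, DESeq2, the authors' deposited statistics, the replicate block, each library left out, both libraries with liver transcripts left out). Their highest adjusted p was 0.022, for Atp6v0d2. Ocstamp could not be fitted at a mean of at least 50, which left 6 genes called. The number of all genes called ran from 2088 to 3005 and was 2191 without both libraries with liver transcripts. DESeq2 on recovered reads and the authors' deposited statistics each called 2691. They gave nearly the same values, so they are not independent, though counts of alternatives hold both. With the replicate number as a block, 7 of the 8 genes and 2675 of all genes were called. Same-numbered libraries did not deviate together (r = -0.193, 0.0149 and -0.246), so the numbers were not taken as pairs. Txn1 KO replicate 3 and wild-type replicate 1, both with liver transcripts, had r = 0.318. For Txn1 KO replicate 2, r was 0.229 with wild-type replicate 3 and -0.219 with replicate 1. For Txn1 KO replicate 1, r was 0.132 with wild-type replicate 2 and 0.0870 with replicate 3. Txn1 KO replicate 3 with wild-type replicate 2 had -0.109. Pairing by these values was not tested. The median log2 change of all genes stayed within 0.01 of 0 in every fit. The scalings used place that median near 0, so it is no test of them. No scale from the ERCC spike-ins was used here. Ocstamp and Mmp9 rest on few reads, which limits their precision.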
